A study of Mus musculus with 22 samples.

Results

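The LIM homeobox genes Lhx1, Lhx3, Lhx4, Lhx5, Lhx6, Lhx8, Lhx9, Lmx1a and Lmx1b were examined for H3K27me3, the repressive histone mark written by Polycomb repressive complex 2 (PRC2), in mouse retina. Members were the peaks that the deposited annotation assigned to one of these 9 genes. There were 22 such peaks among 19034, and they belonged to 8 of the 9 genes, among 12370 genes with a peak. No peak carried the name Lhx8. A peak assigned to the neighbouring gene AI606473 covered the RefSeq start site of Lhx8, so its values are given for Lhx8 by position and were not counted among the 22. Lhx1, Lhx3, Lhx4, Lhx6, Lhx9 and Lmx1b had 1 peak each, Lhx5 had 4 and Lmx1a had 12.

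LIM homeodomain proteins bind DNA through a homeodomain and recruit the adaptor protein Ldb1 through a pair of LIM zinc-finger domains. In combination they specify neuron types, for example motor neurons and interneurons of the spinal cord, cortical interneurons and midbrain dopamine neurons. Outside small sets of expressing cells their genes are classic targets of PRC2, which in vertebrates favours CpG-rich start sites. Jarid2 is an accessory subunit that binds to PRC2 and contributes to its recruitment to chromatin.

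H3K27me3 was profiled by CUT&RUN, in which an antibody-tethered nuclease frees the DNA next to the marked nucleosomes, in C57BL/6 retinas at embryonic day 18.5. The Jarid2 conditional knockouts (cKO, 5 animals) were Jarid2 fl/fl; Rx-cre. The 5 controls were Jarid2 fl/+; Rx-cre (control replicate 1), Jarid2 fl/+ (control replicates 2, 4 and 5) and Jarid2 fl/fl (control replicate 3), as labelled for each sample, whereas the protocol text names Jarid2 fl/fl for the controls of batch 1. The protocol calls the driver Rax-CreERT2, a tamoxifen-inducible Cre expressed from Rax, which is active in retinal progenitors, and tamoxifen at 75 µg per g was injected into the pregnant females at E10.5. All animals thus came from injected mothers, and 4 of the 5 controls carried no Cre. Both retinas of an animal were pooled into 1 sample, and the work was done in 2 batches. Batch 1 held 2 cKO animals (replicates 1 and 2) and 2 controls (replicates 1 and 2) from a single litter, and batch 2 held 3 of each (replicates 3 to 5), all male. In batch 1, cKO replicate 1 and control replicate 2 were female, and cKO replicate 2 and control replicate 1 were male. An animal had 1688368 to 2864080 reads in peaks, of which 0.780% to 0.893% lay in the member peaks. Levels are given in CPM, the reads of a peak scaled to a common total of reads in peaks and by TMM factors, and levels of different genes are compared only per kb of peak. The mark at Jarid2 does not measure the deletion, so the genotype labels were not checked here, and because whole retinas were profiled, fewer cells with the mark and less mark per cell cannot be told apart.

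CpG dinucleotides at the start sites are shown because PRC2 favours such sequence and the wide member peaks cover most of these windows. The RefSeq table for GRCm38.p6, the assembly of mm10, had windows for 8 of the 9 members, 11 windows in all. The 250 bases before the start site held 4 to 26 CpG dinucleotides in these windows (median 14), against a median of 6 over 32851 windows of that length, and 29.4% of all windows held at least 14. Of the 11 windows, 10 lay inside the peak at the member's start site. The exception was an Lhx3 window with 11 CpG dinucleotides (chr2:26208250-26208499), which lay past the end of the peak. Some of the windows are printed 5′ to 3′ on the gene's strand, with each CG in capitals. They run from the most CpG-rich (Lhx1, 26) through Lhx3 (22, its window inside the peak), Lmx1b (19) and Lmx1a (9) to one of the poorest (Lhx8, 4).
Lhx1 (chr11:84525535-84525784, minus strand): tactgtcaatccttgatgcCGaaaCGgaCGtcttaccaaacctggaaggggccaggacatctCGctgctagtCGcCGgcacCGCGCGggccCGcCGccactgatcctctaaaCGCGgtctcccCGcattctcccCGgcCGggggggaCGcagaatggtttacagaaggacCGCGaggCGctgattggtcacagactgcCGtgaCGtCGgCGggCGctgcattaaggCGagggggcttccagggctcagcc
Lhx3 (chr2:26206576-26206825, minus strand): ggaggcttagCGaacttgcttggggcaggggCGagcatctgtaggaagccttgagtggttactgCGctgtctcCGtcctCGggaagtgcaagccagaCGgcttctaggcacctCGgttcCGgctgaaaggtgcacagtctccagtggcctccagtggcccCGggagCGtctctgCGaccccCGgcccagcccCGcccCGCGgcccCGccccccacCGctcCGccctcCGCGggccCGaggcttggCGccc
Lmx1b (chr2:33641099-33641348, minus strand): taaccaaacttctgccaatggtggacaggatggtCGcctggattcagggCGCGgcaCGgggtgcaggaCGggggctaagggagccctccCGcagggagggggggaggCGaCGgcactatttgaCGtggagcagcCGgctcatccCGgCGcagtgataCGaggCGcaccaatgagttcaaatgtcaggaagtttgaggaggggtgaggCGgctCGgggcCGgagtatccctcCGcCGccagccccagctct
Lmx1a (chr1:167689308-167689557, plus strand): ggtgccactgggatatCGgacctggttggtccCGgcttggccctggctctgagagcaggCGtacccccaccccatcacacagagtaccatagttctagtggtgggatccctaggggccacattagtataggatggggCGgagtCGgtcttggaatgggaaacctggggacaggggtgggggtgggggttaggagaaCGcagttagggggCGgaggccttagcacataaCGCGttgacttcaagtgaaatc
Lhx8 (chr3:154330561-154330810, minus strand): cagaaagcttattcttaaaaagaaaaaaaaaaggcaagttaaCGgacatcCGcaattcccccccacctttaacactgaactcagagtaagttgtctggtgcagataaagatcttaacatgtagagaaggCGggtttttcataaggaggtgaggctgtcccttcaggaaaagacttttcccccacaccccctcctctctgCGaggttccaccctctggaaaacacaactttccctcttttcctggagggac
Lhx1 and Lhx8, at opposite ends of this range of CpG content, both lay in peaks of high level per kb, as described next. The letters TAATTA, a common core of homeodomain binding sites that reads alike on both strands and was the single motif searched, were absent from all 11 windows and present in 4.84% of all 32851 windows. At so low a rate, absence from 11 windows says little about the members.

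At the start sites the members carried some of the widest and strongest H3K27me3 domains of the retina in both genotypes. The 9 start-site domains, counting the peak over Lhx8, were 18.071 kb (Lhx3) to 87.171 kb (Lmx1b) wide, against a median width of 2.791 kb over all 19034 peaks. By width the 9 domains all stood among the first 578 of the 19034 peaks, by CPM among the first 306, and by CPM per kb among the first 814. Lmx1b held the broadest of them, ranked 10 in width and 11 in CPM over the whole table. The other 14 member peaks, upstream of Lhx5 or Lmx1a or in introns of Lmx1a, were 0.671 to 22.431 kb wide.

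**Figure D1:**
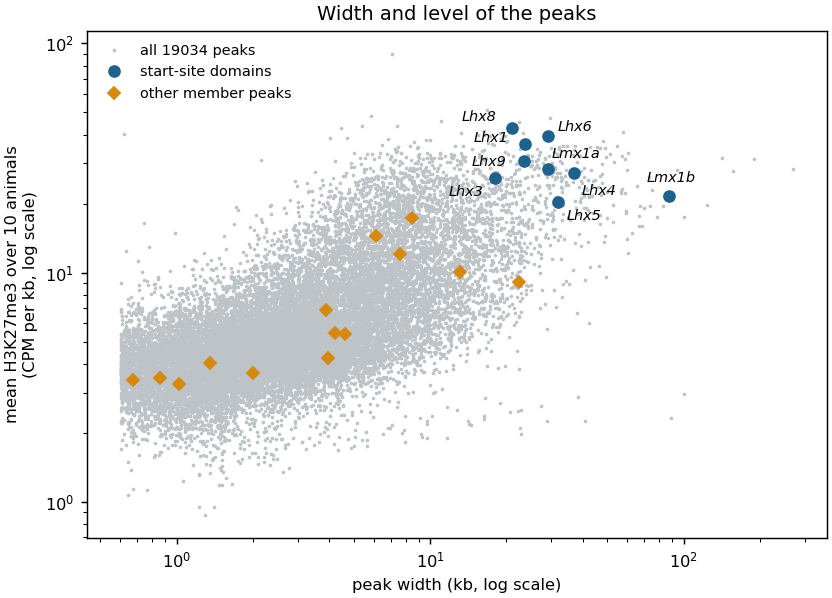
Mean H3K27me3 level over the 10 animals (CPM per kb of peak, log scale) against peak width (kb, log scale) for all 19034 peaks (grey), the 9 start-site domains of the LIM homeobox genes (blue circles, named) and the other 14 member peaks (orange diamonds). The start-site domains lie at the upper right, between 18.071 and 87.171 kb, while most other member peaks lie within the bulk of the table.

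Ordered by level per kb, the domain over Lhx8 came first, with 42.4 ± 2.58 CPM per kb in cKO and 43.1 ± 5.12 in controls (SD, n = 5 each). It was followed by Lhx6 (38.9 ± 2.97 in cKO, 39.7 ± 4.73 in controls), Lhx1 (35.5 ± 2.83, 37.2 ± 5.53) and Lhx9 (30.4 ± 2.90, 31.0 ± 3.17). Next stood Lmx1a (28.0 ± 1.98, 28.5 ± 3.64), Lhx4 (26.9 ± 2.83, 27.5 ± 3.72) and Lhx3 (24.9 ± 1.93, 26.7 ± 2.79), and last Lmx1b (20.5 ± 1.33, 22.6 ± 2.00) and Lhx5 (19.9 ± 1.92, 20.9 ± 2.90). The order was alike in both genotypes. Within an animal it was also regular: Lhx8 was above Lhx6, Lhx6 above Lhx1, Lhx1 above Lhx9 and Lhx3 above Lmx1b in 10 of 10 animals, and the other neighbours kept their order in 8 or 9. Between animals the ranges of neighbouring domains overlapped in both genotypes, apart from Lhx3 and Lmx1b in cKO. Despite this overlap between animals, the steps from Lhx8 to Lhx6, Lhx1 and Lhx9 had 1 sign within every animal.

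**Figure D2:**
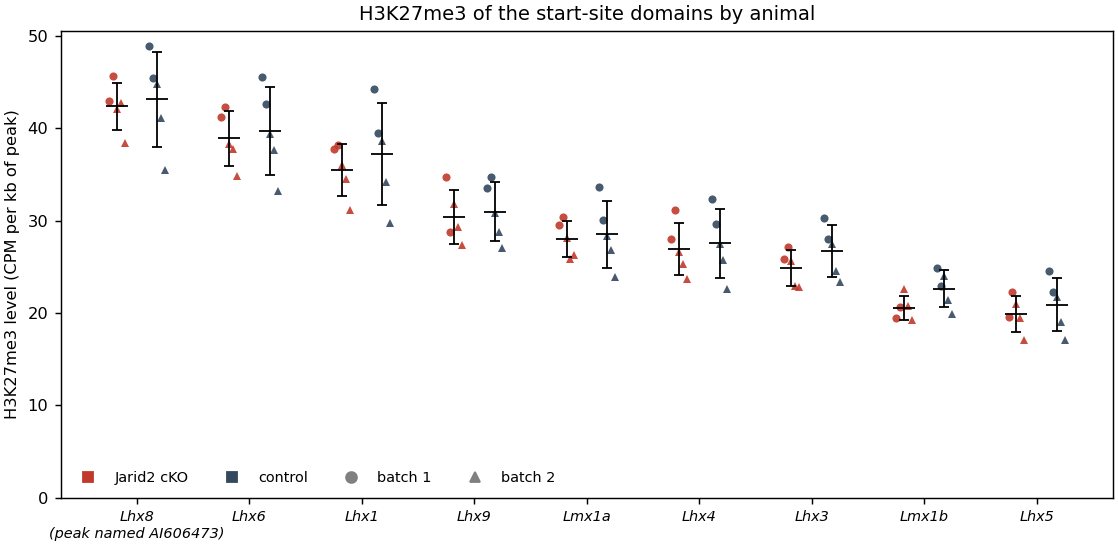
H3K27me3 level (CPM per kb of peak) of the 9 start-site domains in each animal, in order of level, with cKO (red) left of control (blue), circles for batch 1 and triangles for batch 2; bars give the mean and SD of 5 animals. The genotypes overlap at every domain, from Lhx8 (42.4 in cKO, 43.1 in controls) to Lhx5 (19.9 in cKO, 20.9 in controls).

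The comparison of cKO with control asked whether the mark at these genes depended on Jarid2. The start-site domains changed little. Their log2 fold changes (cKO over control) ran from -0.14 at Lmx1b to -0.022 at Lmx1a, with standard errors of 0.065 to 0.076, and 0 of the 9 passed an adjusted p of 0.05 (edgeR quasi-likelihood test with batch as a term, adjusted p = 0.288 to 0.895), with 0 at an unadjusted p under 0.05. DESeq2 and limma-voom also called 0 of the 8 domains assigned to members. The 95% intervals reached from -0.29 to 0.12, so a domain was at most 1.23-fold lower or 1.09-fold higher in cKO within its interval. A single member peak passed, in an intron of Lmx1a, where cKO was 1.52-fold lower. Thus 1 of the 19 member peaks tested was called, against 8.84% of all 16307 peaks tested (7.38% lower and 1.46% higher in cKO), and 3 member peaks had too few reads to test. Of peaks at least as wide as the narrowest start-site domain, 15.7% of 578 were called. The median log2 fold change was -0.026 over the 19 member peaks, 12 of them negative, and 0.022 over all peaks.

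Lhx1 and Lhx5 are close relatives. Lhx1 is needed for the placement of retinal horizontal cells, and Lhx5 acts in the developing forebrain, where it helps form the hippocampus. The domain at Lhx1 (chr11:84513750-84537340, 23.591 kb) had 890.0, 899.8, 848, 814 and 735 CPM in cKO replicates 1 to 5, and 1044, 931, 910.5, 806 and 701 CPM in control replicates 1 to 5. The groups overlapped, with control replicate 1 the highest and control replicate 5 the lowest of all, for a log2 fold change of -0.065 ± 0.074 (SE; adjusted p = 0.679 by edgeR). The domain at Lhx5 (chr5:120415760-120447640, 31.881 kb) had 625, 709, 667, 621 and 545 CPM in cKO, and 781, 711, 691, 605 and 545 CPM in controls. Here too control replicate 1 stood highest and the fifth animals of both groups lowest, and the groups overlapped (-0.068 ± 0.076, edgeR adjusted p = 0.676).

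The 3 other Lhx5 peaks lay 19.1 to 30.5 kb upstream of its start site. The nearest had 94.3, 100.7, 90.4, 84.6 and 79.9 CPM in cKO, and 92.6, 90.6, 84.3, 82.4 and 78.3 CPM in controls. The farthest had 94.3, 99.2, 100.5, 84.2 and 90.3 CPM in cKO, and 103, 87.5, 81.8, 90.2 and 87.4 CPM in controls. Both overlapped between groups, with log2 fold changes of 0.070 and 0.062, and the small peak between them held only 7 to 17 reads per animal. The start-site domain held 77.0 ± 1.02% of the Lhx5 reads in cKO and 78.5 ± 1.61% in controls (SD, n = 5 each).

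Lhx3 and Lhx4 act together in the pituitary and in motor neurons, and Lhx4 also marks a subset of retinal bipolar cells. The domain at Lhx3 (chr2:26190160-26208230, 18.071 kb) had 467, 491, 464, 415 and 412 CPM in cKO, and 547, 506, 497, 444 and 421 CPM in controls. In batch 1 both cKO animals were below both controls, in batch 2 the groups overlapped, for a log2 fold change of -0.10 ± 0.065 (adjusted p = 0.400 by edgeR). The domain at Lhx4 (chr1:155718190-155755260, 37.071 kb) had 1038, 1154, 988, 936 and 879 CPM in cKO, and 1199, 1097, 1018, 956 and 836 CPM in controls. The groups overlapped in both batches (-0.030 ± 0.069, edgeR adjusted p = 0.860).

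Lhx6 and Lhx8 specify interneurons and cholinergic neurons of the ventral forebrain. The domain at Lhx6 (chr2:36084590-36113870, 29.281 kb) had 1207, 1238, 1121, 1107 and 1019.6 CPM in cKO, and 1335, 1246, 1154, 1103 and 971 CPM in controls. Its groups overlapped in batch 2, and in batch 1 cKO lay just below control (-0.026 ± 0.066, edgeR adjusted p = 0.871). The domain over Lhx8 (chr3:154317060-154338060, 21.001 kb) had 901, 958, 883, 897 and 807 CPM in cKO, and 1027, 954, 941, 862 and 744 CPM in controls. The genotypes overlapped in both batches (-0.023 ± 0.070, edgeR adjusted p = 0.895).

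Lhx9 acts in the formation of the gonads and is expressed by some amacrine cells of the retina. Its domain (chr1:138827600-138851050, 23.451 kb) had 813, 674, 745, 688 and 641 CPM in cKO, and 785, 814, 722, 675 and 635 CPM in controls. At Lhx9 cKO replicate 1 was the highest cKO animal and control replicate 2 the highest control, unlike at most other domains, and the groups overlapped (-0.024 ± 0.069, edgeR adjusted p = 0.890). Both of these animals were female and all others male, and a part of sex in this order was not tested.

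Lmx1a and Lmx1b direct the formation of midbrain dopamine neurons, and Lmx1b also patterns the dorsal limb and the anterior segment of the eye. The start-site domain of Lmx1a (chr1:167681050-167710260, 29.211 kb) had 862, 888, 821, 756 and 767 CPM in cKO, and 982, 878, 826, 783 and 697 CPM in controls. The groups overlapped in both batches (-0.022 ± 0.066, edgeR adjusted p = 0.895). The Lmx1b domain (chr2:33565010-33652180, 87.171 kb) covers the start site and most of the gene body, and had 1693, 1803, 1966, 1805 and 1677 CPM in cKO, and 2165, 2002, 2096, 1868 and 1734 CPM in controls. In batch 1 both cKO animals were below both controls, and in batch 2 cKO replicate 3 was above control replicates 4 and 5. Its log2 fold change of -0.14 ± 0.074 did not pass (edgeR adjusted p = 0.288), and among the alternatives run it passed only without control replicate 5 (-0.20, edgeR adjusted p = 0.0222).

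The start-site domains moved together from animal to animal. Control replicate 1, the control that carries Cre, was the highest control at 8 of the 9 domains, and control replicate 5 was the lowest at all 9. Among cKO animals, replicate 2 was highest at 7 domains and replicate 5 lowest at 8. The TMM factors, by which levels are divided, were 0.935 for control replicate 1 and 1.07 for control replicate 5, the lowest and highest of the 10 animals; their part in these levels was not tested. In batch 1 cKO lay below control with no overlap at 5 of the 9 domains (Lhx1, Lhx3, Lhx5, Lhx6 and Lmx1b), against 46.9% of the 578 peaks that were at least as wide as the narrowest domain and 25% of all tested peaks, so the share at the members was near the background. In batch 2 it did so at 0 of the 9, against 17.6% of those wide peaks and 11.8% of all. Log2 fold changes were -0.25 to -0.067 in batch 1 and -0.078 to 0.030 in batch 2, and the test of the difference between batches called 0 member peaks, against 0.0123% of all peaks, and 0 of the 8 genes, against 0.0177% of all genes; by edgeR at an unadjusted p under 0.05, 1 small Lhx5 peak and 0 genes differed between batches.

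The peak that changed lay inside Lmx1a (chr1:167799650-167822080, mm10, 22.431 kb), 110.1 kb downstream of the start site, where the annotation places intron 4 of 8. It had 104, 116, 198, 203 and 188 CPM in cKO replicates 1 to 5, and 149, 183, 305, 316 and 275 CPM in control replicates 1 to 5. The cKO animals lay below the controls with no overlap within each batch, which 7.59% of all tested peaks did, while the cKO animals of batch 2 lay above the controls of batch 1. Its level averaged 7.21 ± 2.13 CPM per kb in cKO and 10.95 ± 3.34 in controls (SD, n = 5 each, with both batches in the SD). It fell by 0.60 ± 0.069 on the log2 scale (SE, edgeR adjusted p = 1.2e-05), which is 1.52-fold lower with a 95% interval of 1.37 to 1.68. The fall was 1.51-fold in batch 1 and 1.52-fold in batch 2.

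The level of this peak also differed between batches. Its mean in batch 2 over that in batch 1 was 1.79 in cKO and 1.80 in controls, whereas the same ratio was 0.893 in cKO and 0.827 in controls at the Lmx1a start-site domain, and 0.819 to 1.18 in cKO and 0.746 to 1.65 in controls at the other 10 Lmx1a peaks. The 1.65 was at an untested peak 84.2 kb downstream with 2 to 12 reads per animal. At the other tested Lmx1a peaks the ratio in controls was at most 1.05. As a share of the start-site domain of the same animal, it stood at 12.1%, 13.0%, 24.1%, 26.8% and 24.5% in cKO, and at 15.2%, 20.9%, 36.9%, 40.3% and 39.5% in controls. Within each batch these shares separated the groups, as the levels of the peak itself did, so they are not separate support. The call was kept in 10 of 10 fits that left out 1 animal (log2 fold change -0.65 to -0.57), but not without the batch term (-0.61, edgeR adjusted p = 0.155) or in batch 1 alone (-0.59, edgeR adjusted p = 0.206). Among all tested peaks annotated as intron, 15.4% of 1914 were called lower in cKO. Of the 20 that were at least 18.071 kb wide, 13 were called lower (65%).

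The other tested peaks of Lmx1a did not pass. Those 26.1 and 10.6 kb upstream had 159, 164, 146, 147 and 136 CPM and 134, 149, 118, 128 and 145 CPM in cKO, against 166, 145, 147, 133 and 124 CPM and 152, 116, 121, 129 and 127 CPM in controls, and the groups overlapped at both. The 5 tested intronic peaks between the start-site domain and the changed peak held 12 to 73 reads per animal. Over these 7 peaks log2 fold changes ran from -0.24 to 0.12 (edgeR adjusted p = 0.380 to 0.944), and the lowest of them, -0.24 ± 0.20, was at the narrowest peak, 95.9 kb downstream. The 3 untested peaks held 2 to 12 reads per animal. The 5 upstream peaks of Lhx5 and Lmx1a had log2 fold changes of 0.00089 to 0.073 (edgeR adjusted p = 0.594 to 1.00), and the lowest, at the small Lhx5 peak, was below 0 under other settings, such as -0.0073 with RLE size factors.

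**Figure D3:**
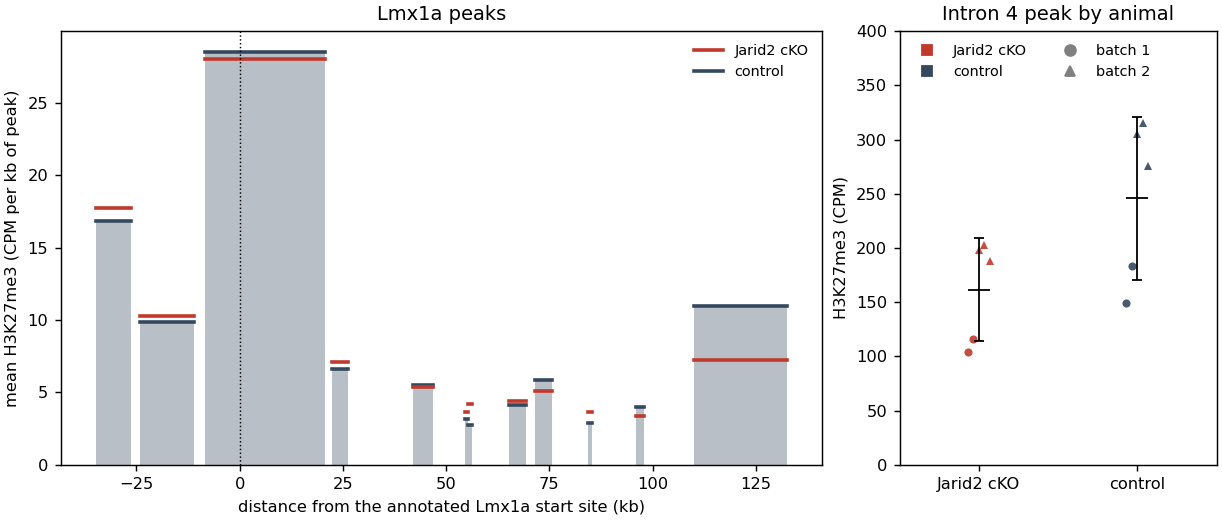
Left, mean H3K27me3 (CPM per kb of peak) of the 12 Lmx1a peaks against distance from its start site (kb), with red lines for cKO, blue lines and grey fill for control; right, CPM of the intron 4 peak in each animal, with mean and SD of 5 animals. The genotypes lie close at the start site (28.0 in cKO, 28.5 in controls) and apart at 110.1 kb (7.21 in cKO, 10.95 in controls), where each batch separates without overlap.

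**Figure D4:**
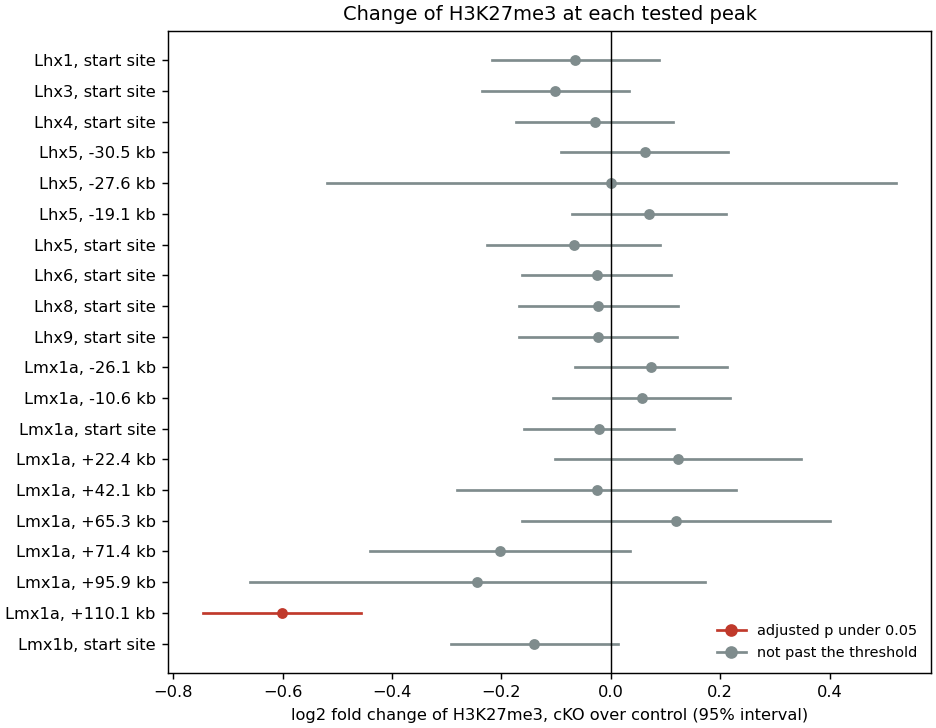
Log2 fold change (cKO over control) with its 95% interval at the 19 tested member peaks and the domain over Lhx8, each named by gene and distance from the start site. The intron 4 peak of Lmx1a (red, -0.60) is the peak past an adjusted p of 0.05, and the intervals of all others include 0.

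Summed per gene, none of the 8 genes passed. The largest differences were at Lmx1b (1789 ± 116 CPM in cKO and 1973 ± 174 CPM in controls, SD, n = 5 each; log2 fold change -0.15 ± 0.069, edgeR adjusted p = 0.188) and Lhx3 (-0.11 ± 0.059, adjusted p = 0.261). Lmx1a had 1374 ± 33.9 CPM in cKO and 1459 ± 84.0 CPM in controls (-0.10 ± 0.055, edgeR adjusted p = 0.308), with 5 of 5 cKO animals below the control mean of their batch. How many other genes did so was not counted. The Lmx1a sum includes the intron 4 peak, with 162 CPM in cKO and 246 CPM in controls, so it is not separate from that change. The other 5 genes had log2 fold changes of -0.078 to -0.037 (edgeR adjusted p = 0.554 to 0.793). So 0 of 8 genes were called, against 9.78% of the 11324 genes tested (8.29% lower and 1.48% higher in cKO) and 11.7% of the 349 genes with at least the CPM of the lowest member. DESeq2 and limma-voom also called 0, and Lmx1b alone had an unadjusted p under 0.05 with edgeR. All 8 log2 fold changes were below 0 (median -0.065, against 0.015 over all genes), but 4 of them, at Lhx4, Lhx5, Lhx6 and Lhx9, were above 0 when libraries were scaled by total count.

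The count differed with the way peaks were summed into genes, each way being fitted anew over its own genes, and with 1 animal. Without control replicate 5, Lmx1b was called (-0.19, edgeR adjusted p = 0.0343). Summing every peak within 50 kb of the RefSeq gene body, which also gave a value for Lhx8 (-0.077, edgeR adjusted p = 0.395), 2 of 9 members were called, Lmx1a (-0.14, adjusted p = 0.0328) and Lmx1b (-0.17, adjusted p = 0.0462), against 5.84% of 14629 genes. Summing peaks over the gene body and 2.5 kb upstream, Lmx1a was called (-0.15, edgeR adjusted p = 0.0392), against 6.48% of 7455 genes, and Lmx1b was not (-0.16, adjusted p = 0.0750). Lhx4 and Lhx9 gained no peak within 50 kb, yet moved from -0.043 to -0.081 and from -0.037 to -0.076 in that fit. The peaks that Lmx1b gained within 50 kb had log2 fold changes of 0.017 and 0.0035. The parts of the added peaks and of the new fit in these calls were not tested.

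Around the genes, 21 peaks assigned to other names lay within 50 kb of a member's body, among them the domain over Lhx8. Of the 20 tested, 1 was called, against 8.84% of all peaks tested (1.46% higher in cKO). It was an intronic peak of Gm43764 (chr2:36057250-36062050), 19.9 kb from Lhx6, with 15.99, 19.04, 16.5, 17.4 and 19.8 CPM in cKO, and 12.9, 12.0, 11.2, 7.84 and 16.3 CPM in controls. In each batch cKO lay above control with no overlap, as at 3.94% of all tested peaks. With only 19 to 42 reads per animal, it rose by 0.57 ± 0.16 on the log2 scale (edgeR adjusted p = 0.0301). Of the 10 fits without 1 animal, 4 kept the call. It did not pass when any of cKO replicates 2, 4 and 5 or of control replicates 2, 3 and 4 was left out (edgeR adjusted p up to 0.105). Of 12 other settings 6 kept it, and it did not pass with DESeq2 (adjusted p = 0.162), without the batch term (edgeR adjusted p = 0.0874), with either duplicate alone (0.151 and 0.0814) or in either batch alone (0.466 in batch 1, 0.0751 in batch 2). A 16.511 kb domain 10.8 kb from Lmx1b, assigned to Gm13530, had a log2 fold change of 0.017 (edgeR adjusted p = 0.919).

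Of the other 3 LIM homeobox genes, 1 was called, against 9.78% of all genes. Isl1 and Isl2, which specify motor neurons and several retinal neurons, did not pass (-0.076 and -0.088, edgeR adjusted p = 0.542 and 0.483). Lhx2, which is needed to form the eye, was lower in cKO, with 105 ± 6.16 CPM against 126 ± 17.5 CPM in controls (SD, n = 5 each; -0.26 ± 0.070, edgeR adjusted p = 0.0203). It did not pass when any of cKO replicates 1, 2 and 5 or of control replicates 2 and 4 was left out (edgeR adjusted p up to 0.0730). Of 12 other settings 6 kept the Lhx2 call, and it did not pass with DESeq2 (adjusted p = 0.0570), total count (edgeR adjusted p = 0.0525), the first duplicate alone (0.0547), no batch term (0.112), batch 1 alone (0.184) or batch 2 alone (0.360). Isl1 had a higher mean level per kb than any member's start-site domain, with 46.0 CPM per kb in cKO and 48.2 in controls.

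Of 10 genes for cofactors of LIM homeodomain proteins, 5 could be tested. Among these, 3 were called lower in cKO, against 8.29% of all genes tested. All 3 encode LIM-only proteins, which bind Ldb1 without contacting DNA. Lmo1 had 871 ± 158 CPM in cKO and 1249 ± 156 CPM in controls (-0.55 ± 0.076, edgeR adjusted p = 9.9e-05), over a single peak region of 66.7 kb. Lmo3 had 590.2 ± 41.7 CPM in cKO and 713 ± 53.0 CPM in controls (-0.29 ± 0.058, edgeR adjusted p = 0.00271). Lmo4 had 49.0 ± 16.6 CPM in cKO and 87.2 ± 26.6 CPM in controls (-0.84, edgeR adjusted p = 2.0e-05). These 3 calls held in 10 of 10 fits without 1 animal. Without the batch term Lmo3 and Lmo4 did not pass (edgeR adjusted p = 0.0585 and 0.0861), and in batch 1 alone none of the 3 did (0.116 to 0.135). Lmo2 (-0.12) and Rlim (-0.017) were not called. No peak carried the name of the adaptors Ldb1 and Ldb2. Of 15 partner and target genes, some of them expressed in the retina, 13 were tested and 1, Otx2, was called lower (-0.33, edgeR adjusted p = 0.00222; 0.116 in batch 1 alone), against 8.29% of all genes. The median log2 fold change of the 13 was -0.068, against 0.015 over all genes, of which 46.8% were below 0; 13 of the 13 were below 0, but 7 when scaled by total count. The 8 regulators of other tissues described next had a median of -0.036, with 8 below 0, but 1 when scaled by total count.

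The tissue label was checked on regulators that the retina expresses. No H3K27me3 peak carried the name Rax, Six3, Six6, Sox2 or Crx, and peaks over these genes under another name were not looked for. Pax6 and Hes1 had a small peak each, with 4.14 CPM per kb in cKO and 4.54 in controls at Pax6, and 5.54 in cKO and 7.79 in controls at Hes1. Isl1 and Isl2, named above for several retinal neurons, instead had 46.0 and 25.4 CPM per kb in cKO, and 48.2 and 26.8 in controls. So a low level was not shared by all regulators of retinal cells, and these few genes do not settle the tissue label. The 8 regulators of other tissues all had peaks, with 12.4 to 34.2 CPM per kb in cKO and 12.4 to 35.4 in controls. These values sum all peaks of a gene over their total width. On that measure the members with a named peak had 14.5 (Lmx1a) to 38.9 (Lhx6) CPM per kb in cKO, within or above the range of the regulators of other tissues. The start-site domains alone, including the one over Lhx8, had 19.9 to 42.4 CPM per kb in cKO. Of the 8 regulators of other tissues, 0 were called by edgeR, with 0 at an unadjusted p under 0.05.

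Across the 10 animals, with the batch mean taken out, the genes most like Lmx1b in pattern were Pax3 (Pearson r = 0.972), Gbx2 (0.971), Jhy (0.964), Tbx15 (0.952) and Sox1ot (0.951), among 98 genes within a factor of 2 of its CPM. The median r of those 98 was 0.836, so a high r was common among strongly marked genes, which share libraries and scaling factors.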

How the data were processed

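H3K27me3 was measured by CUT&RUN in 16 libraries from 5 cKO and 5 control mice(6 IgG libraries were not used here). The authors deposited a table of counts per peak, with a gene name, annotation and start-site distance for each. The build mm10 and the tools MACS2, SAMtools, Novoalign 4.02.02 and DESeq2 1.38.1 are named, without role or order, per the submitters' processing notes. Peak calling settings, read counting and the libraries behind the peaks: not given in the sources used here. The authors' own test columns do not name their contrast and were not used.

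The members and gene lists were chosen with earlier results of these data known. The technical duplicates of batch 2 agreed within counting noise (chi-square divided by degrees of freedom 0.876 to 0.979, against 1.08 to 2.90 between animals) and were summed, so each animal counted once. Low counts were removed with filterByExpr, and edgeR 4.0.16 (R 4.3.3) quasi-likelihood tests with TMM factors and batch as a term were fitted over all 16307 peaks, and over 11324 genes after summing peaks by gene name. Values were adjusted by Benjamini-Hochberg and called under 0.05; the steps were tested on simulated data. TMM factors assume that most peaks do not change, so a loss shared by all peaks would not show. A standard error is the log2 fold change divided by the square root of F. All members were named, with animal values for each member's strongest peak and each called one; listed genes were named when called, and 1 gene of the tissue check is not reported here. Other settings were tried: size factors, total count, no filter, no batch term, a replicate block, sex, each batch or duplicate alone, DESeq2 1.42.0, limma-voom (limma 3.58.1), other sums per gene, and leaving out each animal.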

Additional observations from a re-analysis of the deposited data

How the results depend on the processing

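The intron 4 peak of Lmx1a was lower in cKO under all alternatives run. Over all peaks, 359 were called without the batch term (271 genes, 0 member peaks), 0 in batch 1 alone (0 genes and 0 member peaks, with 2 animals per genotype) and 876 with DESeq2 (736 genes), against 1442 peaks and 1107 genes. When scaled by total count instead of TMM, 68.4% of called peaks were lower in cKO, against 83.5%, and the gene sums of Lhx4 (0.017), Lhx5 (0.0069), Lhx6 (0.020) and Lhx9 (0.022) turned positive. In batch 2 alone Lhx5 (2.9e-04) and Lhx9 (0.016) did so, and Lhx9 (0.018) without cKO replicate 2, over a range of -0.074 to 0.018 when each animal was left out; the cause was not tested. Leaving out 1 animal gave 1090 to 1617 peaks, 838 to 1246 genes, 1 to 2 member peaks and 0 to 1 member genes, and 0 to 8 genes that differed between batches, against 2. Summing peaks within 50 kb called 2 members, and over the gene body 1. The replicate block called 1422 peaks and 1082 genes and changed no member call; animals of equal number had r = 0.094, 0.014 and 0.036 in batch 2, all under 0.1, so the numbers were not taken to pair animals. In batch 1, with 2 animals per genotype, both numbers give by construction 1 value (r = -0.44). Depth limited the small peaks: at the Lmx1a peak 95.9 kb downstream, with 12 to 23 reads per animal, the 95% interval of the log2 fold change reached from -0.66 to 0.17 and so included the change seen at intron 4.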
